A study of Mus musculus with 3 samples.

Results

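Imprinted genes, which are expressed from the maternal or the paternal copy alone in many tissues, were examined in H3K9ac profiles of sorted mouse haematopoietic stem cells (HSCs). The set comprised 31 named genes at 14 loci, and every summit inside a gene record or within 5 kb of either end of it was taken as a summit of that gene. The member summits were thus selected on their measured positions, so the counts below are descriptions and were not tested. In all, 164 of the series' 187421 summits were members. The library labelled old HSC ABC gave 42 of its 45386, the one labelled old HSC 97 of 108787 and the one labelled young HSC 25 of 33248.

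The assay was CUT&Tag, in which an antibody against a chromatin mark recruits a transposase that tags the DNA beside it. H3K9ac is acetylation of lysine 9 on histone H3 and is found at active promoters and enhancers. The HSCs were sorted from bone marrow of femora and tibiae of wild-type mice, with 50000 cells per assay; the sort markers are not stated in the labels. Mice in the old HSC ABC and old HSC groups were 18 to 24 months old and those in the young HSC group 2 to 4 months, as read from the protocol and the letter o or y that opens each title. ABC is not spelled out in the labels, so what it adds to old HSCs is named by that label. Each group was a single library, so no difference between groups could be set against a replicate spread. Sample names inside the peak names went against the labels: the ABC-labelled list carried the name oHSC-H3K9ac-2, the old-labelled list oHSC-ABC-H3K9ac-1 and the young-labelled list oHSC-H3K9ac-1. Libraries are called by their labels throughout. If the names inside the files hold instead, the old-labelled list is the ABC library and neither of the others is from young mice.

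Values are positions of 1 bp summits in mm10 and the score that the authors' peak calling gave each summit, read here as the −log10 q-value within that library. A score grows with sequencing depth, which was unknown, so it is used to rank summits inside a list, where rank 1 is the strongest. The exception is a set of alternative counts with score minimums, which cut all lists at the same score and so depend on depth. Because longer lists mark more genes, counts are also given for equal-length lists, which hold the 33248 highest-scoring summits of each library. Of 12 HSC and progenitor marker genes, 12, 12 and 11 had a summit in the ABC-, old- and young-labelled libraries. Of 5 B cell markers 2, 5 and 2 did, of 8 myeloid markers 7, 8 and 7, and of 6 T and NK cell markers 5, 5 and 4. Markers of erythroid cells (2, 4 and 3 of 5), megakaryocytes (3, 4 and 2 of 4) and stroma and endothelium (3, 6 and 3 of 6) also had summits. The part of other cell types in the results below was not tested.

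Imprinting is set in the germ line, where an imprinting control region is methylated on the copy from a single parent, and that difference is kept through cell divisions. Many imprinted genes steer growth of the fetus and placenta, and several, among them Igf2, H19, Dlk1 and Meg3, have been linked in mice to quiescence and maintenance of HSCs. The lists used here do not separate the parental copies, so a summit at an imprinted gene does not say which copy carries the mark.

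Most of the genes carried a summit in the old-labelled library and about as many did as did not in the others. A summit was present at 17 of 31 genes in the ABC-labelled library, where 45.8% of all 49943 gene records had one. In the old-labelled list 25 of 31 genes were marked, against 60.6% of all records, and in the young-labelled list 15 of 31, against 41.0%. The member shares were 54.8% (95% Clopper-Pearson interval 36.0 to 72.7), 80.6% (62.5 to 92.5) and 48.4% (30.2 to 66.9) in that order, and the intervals cover counting error only. Neighbouring members share summits, as Kcnq1 and Kcnq1ot1 do, so the genes are not independent of each other and the intervals are no test.

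The all-record share is lowered by short and non-coding records. Of the 26 protein-coding members 15, 20 and 14 were marked in the ABC-, old- and young-labelled libraries, or 57.7%, 76.9% and 53.8%, against 66.8%, 77.4% and 62.5% of all protein-coding records. Among the 12 members with records of 5 to 50 kb, 4, 10 and 4 were marked, where the shares over all records of that length were 59.8%, 75.1% and 53.9%. The 11 members over 50 kb were marked in 9, 10 and 8 cases, beside 76.6%, 84.7% and 71.2% of such records. The 8 members under 5 kb were marked in 4, 5 and 3 cases, beside 25.8%, 41.8% and 22.1%. With equal list lengths 15, 16 and 15 of the 31 genes were marked, where 40.8%, 42.8% and 41.0% of all records were. In those lists 12 genes were marked throughout and 12 nowhere, where 33.3% and 49.6% of all records were. The larger number in the old-labelled library as deposited was thus not seen in lists of the same length.

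**Figure D1:**
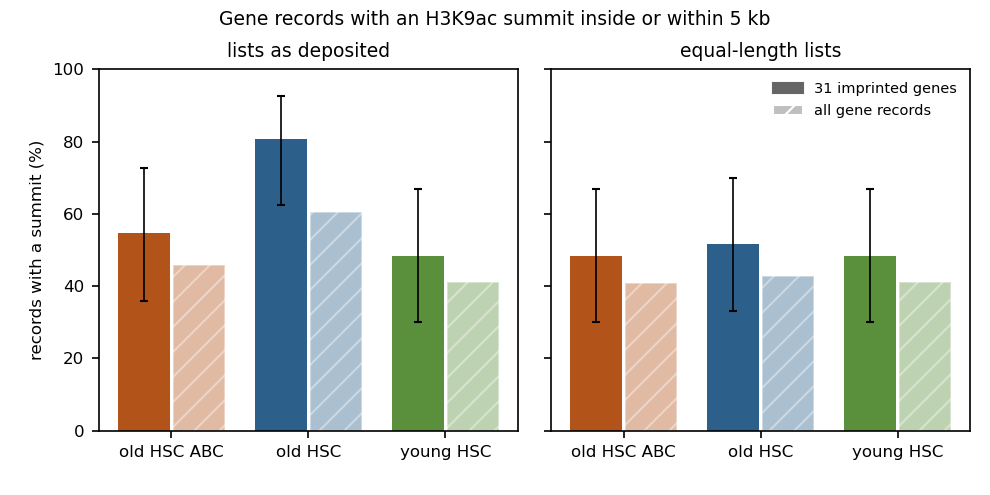
Share of gene records with an H3K9ac summit inside or within 5 kb (%, vertical axis) for the 31 imprinted genes (solid bars, with 95% Clopper-Pearson intervals that cover counting error only) and for all 49943 gene records (hatched bars), by library label. With lists as deposited the imprinted genes stand at 54.8%, 80.6% and 48.4% in the old HSC ABC, old HSC and young HSC libraries, and in equal-length lists at 48.4%, 51.6% and 48.4%.

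By gene, 14 of 31 were marked in all 3 libraries, where 36.8% of all records were: Ascl2, Commd1, Gnas, Grb10, Igf2, Igf2r, Impact, Kcnq1, Kcnq1ot1, Mest, Nnat, Ube3a, Usp29 and Zrsr1. A further 6 were marked in none, Magel2, Mkrn3, Ndn, Peg3, Snrpn and Zim1, where 38.0% of all records were marked in none. The other 11 differed between libraries. Of 13 genes listed as maternally expressed, 7, 12 and 7 were marked in the ABC-, old- and young-labelled libraries, and of 17 listed as paternally expressed, 9, 12 and 7, beside the 45.8%, 60.6% and 41.0% of all records. At equal list length the counts were 6, 7 and 7 for the maternally and 8, 8 and 7 for the paternally expressed genes, where 40.8%, 42.8% and 41.0% of all records were marked. The 13 include Ube3a and Commd1, which are listed as maternally expressed in brain and were marked in all 3 libraries. Which copy any gene uses in HSCs was not measured. Gnas, which gives transcripts of both kinds, was marked in all 3. Of the 6 genes without a summit, 5 belong to the paternally expressed group and Zim1 to the maternally expressed one.

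**Figure D2:**
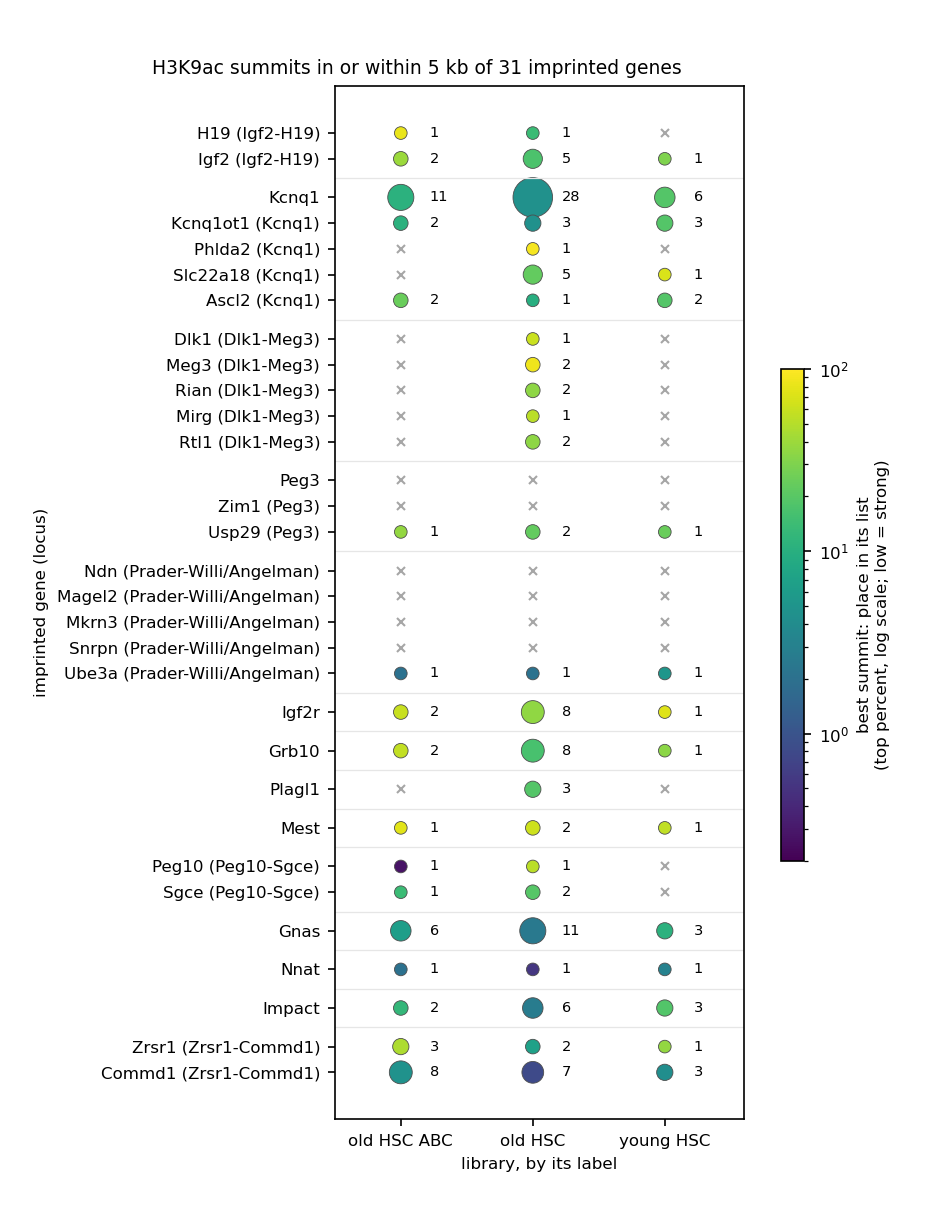
Number of H3K9ac summits (figure beside each circle, and circle area) in or within 5 kb of each of 31 imprinted genes (rows, by locus) in the 3 libraries (columns, by label). Colour gives the place of the gene's strongest summit in its own list as a top percent on a log scale, and crosses mark genes with no summit. The Dlk1-Meg3 genes have circles in the old HSC column alone, and Peg3, Zim1, Ndn, Magel2, Mkrn3 and Snrpn have crosses in every column.

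At the Igf2-H19 locus on chromosome 7, a single control region decides between the growth factor gene Igf2 and the non-coding RNA gene H19 through the insulator protein CTCF. The record of H19 (142575530 to 142578146) held no summit itself, but an ABC-labelled summit at 142580541 and an old-labelled one at 142580542 lay 2395 and 2396 bp beyond its upper end. That is the side facing Igf2, on which the control region lies. Their scores were 2.53 in the ABC-labelled library (rank 37276) and 10.9 in the old-labelled library (rank 15149), and the nearest young-labelled summit lay 14.1 kb from the record. The old-labelled one alone was strong enough to enter an equal-length list. Igf2 (142650768 to 142666816) had 2 ABC-labelled, 5 old-labelled and 1 young-labelled summits. A position just beyond the end where Igf2 starts was held by each list, at 142667957, 142667959 and 142667960 in the ABC-, old- and young-labelled lists, with scores of 4.65, 9.14 and 6.80. It lay inside the record of Igf2os, an antisense transcript, so the mark cannot be given to either gene.

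The Kcnq1 locus lies further along chromosome 7. Its control region holds the start of Kcnq1ot1, a long antisense RNA made from the paternal copy that silences neighbours in cis. All libraries had a summit at that start to within 3 bp of each other: at 143296485 in the ABC-labelled list (score 10.9, rank 4802), 143296488 in the old-labelled list (28.7, rank 4879) and 143296486 in the young-labelled list (7.65, rank 8630). They lay 62, 59 and 61 bp from the RefSeq start of the RNA. A companion summit further into the gene, 1072 and 1070 bp from the start, was present in the ABC-labelled (143295475, score 6.09) and young-labelled (143295477, 9.71) lists. The old-labelled list had none within 1 kb of that position.

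Kcnq1 itself, a potassium channel gene whose record of 320 kb contains Kcnq1ot1, had 11 ABC-labelled, 28 old-labelled and 6 young-labelled summits, which include those of Kcnq1ot1. A site inside it at 143180994, 143180960 and 143181043 was shared by the ABC-, old- and young-labelled lists, with scores of 4.80, 9.55 and 6.48. Ascl2, a helix-loop-helix factor of the placenta and of gut stem cells, had no summit within its record in any library. Its strongest summit lay 3432, 3301 and 3276 bp from its start, with scores of 6.54, 15.2 and 9.68 in the ABC-, old- and young-labelled libraries. Phlda2, which restrains placental growth, had 1 old-labelled summit 388 bp from its start (score 2.14, rank 99569), and the nearest summits of both other libraries were 10.8 kb from its record. Slc22a18, a membrane transporter gene, had 5 old-labelled summits, of which 1 is that of Phlda2 and the strongest lay 98 bp from its start (score 7.41), and 1 young-labelled summit deep inside it (3.18). The ABC-labelled list had none there and its nearest was 14.6 kb from the record.

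The Dlk1-Meg3 locus on chromosome 12 pairs Dlk1, a membrane protein related to Notch ligands, and the retrotransposon-derived gene Rtl1 with the maternally expressed non-coding RNAs Meg3, Rian and Mirg. All 5 genes were marked in the old-labelled library and none in the ABC- or young-labelled library. The old-labelled library had 6 summits in these windows, with scores from 2.41 to 5.30. Dlk1 had 1 at 109459561 (3.46, rank 66626), Meg3 had 2 (2.42 and 2.41), Rian had 2 (5.30 and 3.35) and Mirg had 1 (3.92). Rtl1 had no summit of its own, since both counted there are shared with Meg3 or Rian. Weak summits made up the whole set, and none of the 6 reached the old-labelled equal-length list, whose lowest score was 5.86. The nearest summits in the ABC-labelled library were 9.73 kb from the record of Dlk1 and 7.39 kb from that of Meg3, and in the young-labelled library 20.6 and 31.3 kb.

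**Figure D3:**
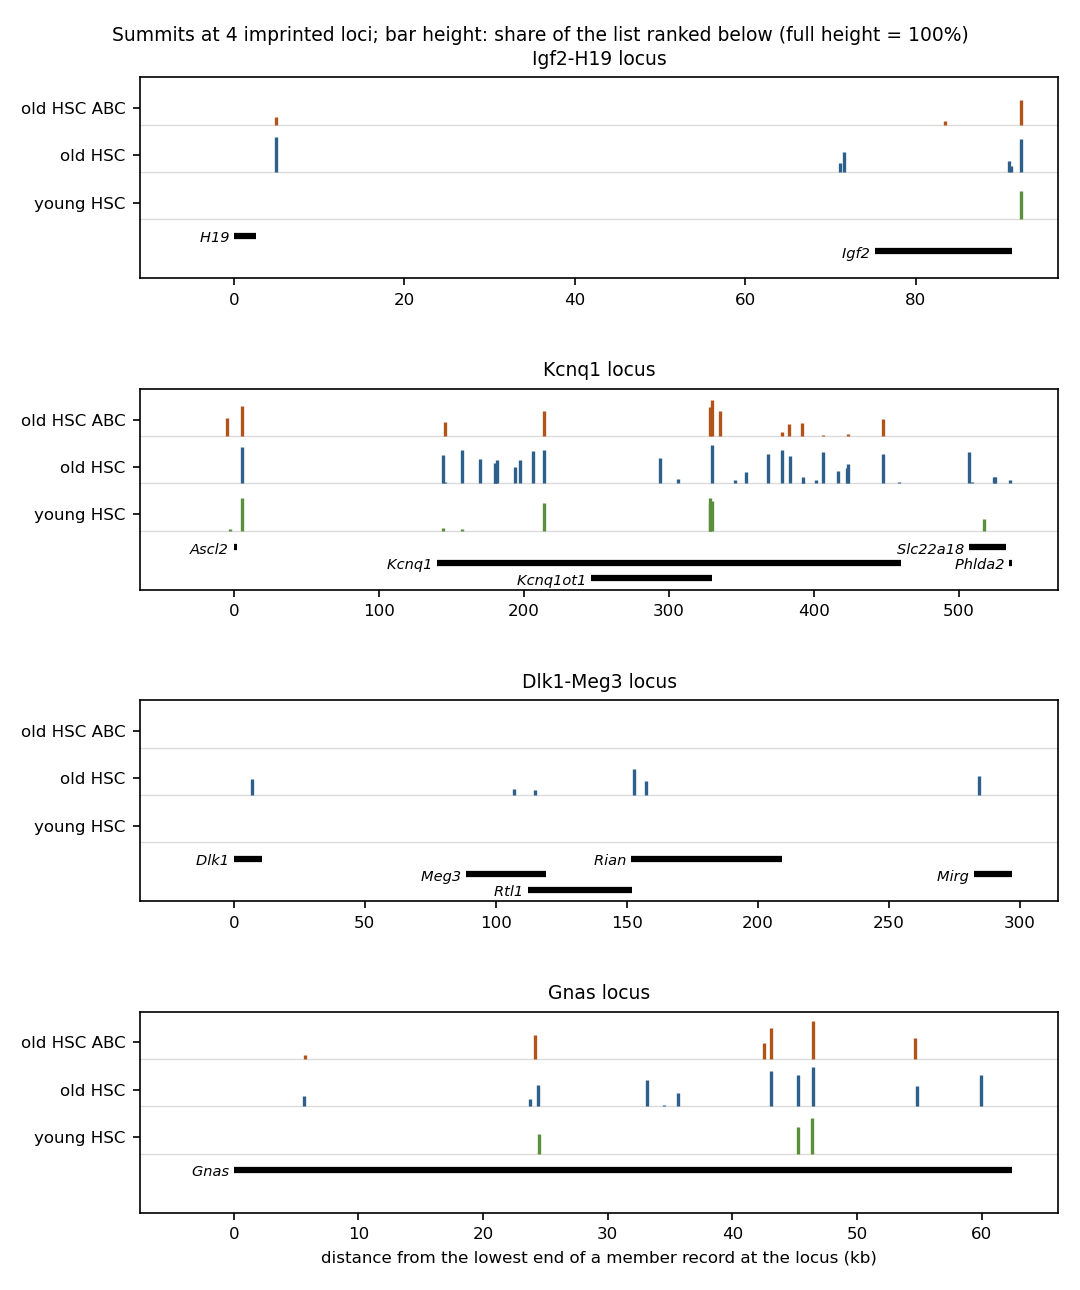
Member summits (those outside the 5 kb windows are not drawn) at the Igf2-H19, Kcnq1, Dlk1-Meg3 and Gnas loci by distance (kb) from the lowest end of a member record, with 1 track per library label and black bars for the gene records. The height of a coloured bar gives the share of its list that ranks below it. The Kcnq1 panel shows tall bars in all tracks at the upper end of Kcnq1ot1, and the Dlk1-Meg3 panel shows bars in the old HSC track alone.

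The Prader-Willi and Angelman locus, on chromosome 7 as well, was split. Ube3a, a ubiquitin ligase gene imprinted in neurons and expressed from both copies elsewhere, had 1 summit in each library at its start. These had scores of 22.2 (rank 910), 42.1 (rank 2282) and 19.4 (rank 1728) in the ABC-, old- and young-labelled libraries, all in the strongest 5.20% of their lists. The paternally expressed genes of the locus had none. These are Snrpn, a splicing protein gene, Ndn, which encodes necdin, Magel2, a partner of ubiquitin ligases, and Mkrn3, a gene tied to the timing of puberty. No summit lay between positions 59229418 and 63584638 in the ABC-labelled list, a gap of 4.36 Mb that begins at the Ube3a summit. The old-labelled gap ran from 59771588 to 63507268 (3.74 Mb) and the young-labelled one from 59229442 to 63684991 (4.46 Mb). Among all distances between neighbouring summits, longest first, these gaps ranked 31 of 45320, 42 of 108701 and 37 of 33188. Peg12, another paternally expressed gene of this locus, and Snurf, which is read from the same transcript as Snrpn, also had no summit in any library.

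The Peg3 locus near the start of chromosome 7 was largely without summits as well. Peg3 and Zim1, both zinc-finger genes, lay in gaps of 521 kb in the ABC- and old-labelled lists and of 555 kb in the young-labelled list. Usp29, a ubiquitin protease gene that starts beside Peg3, had 1, 2 and 1 summits in the ABC-, old- and young-labelled libraries. They lay far inside its 237 kb record, and the nearest to its start was 188855, 189017 and 207708 bp away.

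Of the single loci, Gnas on chromosome 2, which encodes the stimulatory G protein alpha subunit and uses several starts, was marked in all libraries. It had 6 ABC-labelled, 11 old-labelled and 3 young-labelled summits. The strongest lay at 174330795 (score 14.1, rank 2898), 174330803 (39.1, rank 2693) and 174330743 (14.0, rank 3539) in the ABC-, old- and young-labelled lists, 789, 797 and 737 bp into the gene from the start at 174330006. A summit by an earlier start, at 174327749, was present in the ABC-labelled (174327453, score 6.73) and old-labelled (174327454, 13.1) lists, and the nearest young-labelled one was 1811 bp from that start. That young-labelled summit, at 174329560 (rank 11163), fell on the same base as an old-labelled one (rank 24310) and had no ABC-labelled counterpart within 1 kb. The first start of the record, at 174284320, had no summit within 5 kb, the nearest being 5710, 5654 and 9810 bp away.

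Nnat, which encodes the membrane proteolipid neuronatin, ranked 3, 1 and 1 among the marked members of the ABC-, old- and young-labelled libraries. That rank did not come from its own start. The window of Nnat held a single summit, at 157566564 in every list (scores 22.1, 65.1 and 23.6), which lay 4039 bp from the record of Nnat and 203 bp from a start of Blcap, the gene that surrounds it. The nearest summit to the start of Nnat was 6486, 6382 and 6486 bp away. Mest, a gene of the alpha/beta hydrolase family, was similar: the ABC- and young-labelled summits of its window (scores 2.68 and 4.03) and the stronger of 2 old-labelled ones (3.39) lay in the neighbouring gene Copg2.

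Zrsr1 and Commd1 on chromosome 11 overlap, since the intronless gene Zrsr1, related to a splicing factor, lies inside Commd1, a gene of copper transport and NF-kB control. Commd1 had 8, 7 and 3 summits in the ABC-, old- and young-labelled libraries. The strongest were at its own start, with scores of 16.1 (rank 2180), 58.5 (rank 874) and 21.2 (rank 1388). Zrsr1 held 3, 2 and 1 of these summits in the same order of libraries. Its shared summit at 22972554, 22972554 and 22972559 had scores of 4.17, 20.8 and 5.82 in the ABC-, old- and young-labelled lists. It lay 549, 549 and 554 bp from the start of Zrsr1 on the plus strand and 312, 312 and 307 bp from a second start of Commd1 on the minus strand, so it is reported for both genes. Impact, a regulator of amino acid sensing, had 2 ABC-labelled, 6 old-labelled and 3 young-labelled summits, and a shared one near the lower end of its record on chromosome 18 had ranks of 5560, 2870 and 6204 in their lists.

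Igf2r, the receptor that clears the growth factor IGF2, and Grb10, an adaptor that restrains the insulin receptor, were marked within their long records but not at their starts. Igf2r had 2 ABC-labelled, 8 old-labelled and 1 young-labelled summits with best ranks of 26755, 39130 and 24589, and its start was 13633, 9998 and 23672 bp from the nearest. Airn, the non-coding RNA that silences it on the paternal copy, had its start 27226, 13418 and 4723 bp from a summit. The record of Airn also held the young-labelled summit of Igf2r and the strongest old-labelled one. Grb10 had 2, 8 and 1 summits with highest scores of 3.61, 9.40 and 6.17, and the nearer of its 2 starts was 51034, 49197 and 49077 bp from any. Plagl1, a zinc-finger gene that controls growth, had 3 old-labelled summits (highest score 8.42) and none in the other lists. The nearest were 11.1 kb from its record in the ABC-labelled and 41.2 kb in the young-labelled library.

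Peg10 and Sgce on chromosome 6 are divergent neighbours, a retrotransposon-derived gene needed for the placenta and the gene of epsilon-sarcoglycan. The strongest imprinted-gene summit of the ABC-labelled library lay here, at 4762466, 1949 bp beyond the upper end of the Peg10 record, with a score of 42.8 and rank 124 of 45386. The old-labelled library had its nearest summit 15725 bp away, at 4746741 (score 3.92, rank 56862), and the young-labelled library 132866 bp away. Of 193 ABC-labelled summits on the chromosomes of rank 200 or better, it was the 1 with no summit of another list within 5 kb, and the next such summit had rank 3096. The other summits of the pair were inside Sgce, at 4716292 in the ABC-labelled (9.24) and 4716288 in the old-labelled (8.25) list. The nearest young-labelled summits were 44.8 kb from the record of Sgce and 118 kb from that of Peg10. No replicate was at hand to show whether the ABC-labelled summit beside Peg10 recurs.

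Summits at the starts of genes were counted apart, because a record also holds introns and distant sites. RefSeq starts were at hand for 25 of the 31 genes (39 starts), and H19, Rtl1, Kcnq1, Peg10, Sgce and Impact had none in the table. Of the 25 genes, 6 had a start within 1 kb of an ABC-labelled summit, 8 of an old-labelled and 5 of a young-labelled one. The shares of 24.0%, 32.0% and 20% stood below the 35.5%, 47.2% and 34.5% of all 27025 genes with a start. With lists cut to the same length 5, 6 and 5 genes were marked at a start, where 33.1%, 37.8% and 34.5% of all genes were. Commd1, Gnas, Kcnq1ot1, Ube3a and Zrsr1 were marked at a start in every library. Igf2 was marked so in the ABC- and old-labelled libraries at different starts, and Phlda2 and Slc22a18 in the old-labelled library.

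**Figure D4:**
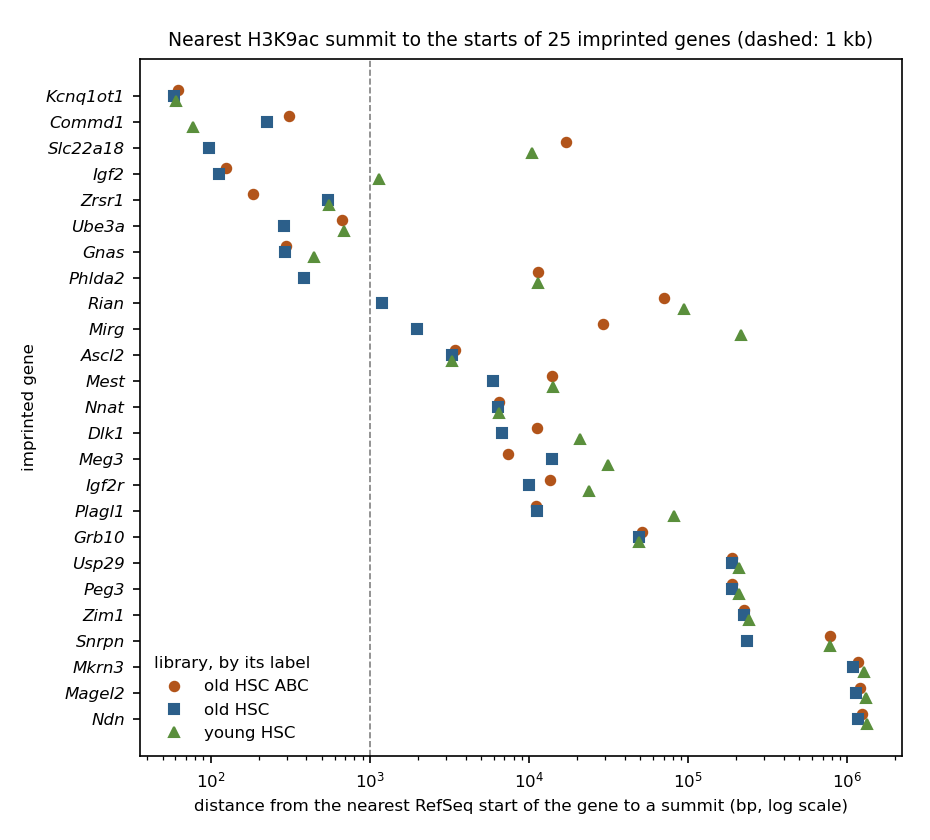
Distance (bp, log scale) from the RefSeq starts of 25 imprinted genes (rows) to the nearest H3K9ac summit, taking the closest start of each gene, in the old HSC ABC (circles), old HSC (squares) and young HSC (triangles) libraries. The dashed line marks 1 kb. Kcnq1ot1, Commd1, Zrsr1, Ube3a and Gnas lie left of it in every library, and Ndn, Magel2 and Mkrn3 lie at 1087115 bp or more.

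The starts that lacked a summit ranged from poor to rich in CpG dinucleotides, the pair of bases at which imprints are methylated and which is dense in many active promoters. In the 250 bases before a start, the 27 member starts with no summit within 1 kb in any library held a median of 10 CpG (range 0 to 40), and the 12 with one held 17.5 (0 to 29). Over all starts of the table the medians were 3 for 17122 starts without and 14.0 for 15729 starts with a summit. Member starts without a summit thus had more CpG than such starts in general, as described by the medians alone. The 27 member starts belong to 19 genes, some with several starts, and the 2 sets were not matched for coding and non-coding genes. The 250 bases before 8 starts are shown 5′ to 3′ along the gene, with CpG in capitals, to set 4 starts marked in all libraries beside 4 without a summit within 1 kb in any. They were picked after their values were seen, to show that both kinds include CpG-rich starts, and do not stand for all 39. Starts poor in CpG and without a summit, such as those of Rian (0 CpG), Snrpn (2 to 4) and Ndn (5), are not shown. The sequences are from RefSeq, GRCm38.p6. The first 4 belong to Ube3a (chr7:59228500-59228749, plus strand), Gnas (chr2:174329756-174330005, plus), Commd1 (chr11:22982285-22982534, minus) and Kcnq1ot1 (chr7:143296548-143296797, minus).
Ube3a: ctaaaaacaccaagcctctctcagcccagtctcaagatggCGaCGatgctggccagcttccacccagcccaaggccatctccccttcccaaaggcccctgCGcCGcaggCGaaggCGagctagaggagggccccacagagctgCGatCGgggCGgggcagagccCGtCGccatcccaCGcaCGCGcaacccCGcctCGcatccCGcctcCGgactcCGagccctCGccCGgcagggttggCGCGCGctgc
Gnas: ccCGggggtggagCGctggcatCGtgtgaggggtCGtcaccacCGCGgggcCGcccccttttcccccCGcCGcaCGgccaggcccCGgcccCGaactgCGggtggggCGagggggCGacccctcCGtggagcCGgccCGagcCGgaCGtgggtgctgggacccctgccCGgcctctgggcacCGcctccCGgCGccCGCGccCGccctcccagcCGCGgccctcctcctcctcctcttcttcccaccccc
Commd1: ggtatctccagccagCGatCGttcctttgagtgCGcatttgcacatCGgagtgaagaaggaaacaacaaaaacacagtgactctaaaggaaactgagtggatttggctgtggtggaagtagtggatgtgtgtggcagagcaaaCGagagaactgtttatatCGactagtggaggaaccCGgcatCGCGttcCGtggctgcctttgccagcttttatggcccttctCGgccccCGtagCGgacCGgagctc
Kcnq1ot1: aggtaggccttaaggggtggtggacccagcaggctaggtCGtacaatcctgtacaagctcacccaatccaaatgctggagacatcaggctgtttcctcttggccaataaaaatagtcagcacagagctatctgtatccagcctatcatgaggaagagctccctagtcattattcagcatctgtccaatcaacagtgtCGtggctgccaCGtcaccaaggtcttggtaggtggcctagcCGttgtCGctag
The other 4, which had no summit within 1 kb, belong to Grb10 (chr11:12037421-12037670, minus), Igf2r (chr17:12769707-12769956, minus), Plagl1 (chr10:13090582-13090831, plus) and Meg3 (chr12:109540746-109540995, plus).
Grb10: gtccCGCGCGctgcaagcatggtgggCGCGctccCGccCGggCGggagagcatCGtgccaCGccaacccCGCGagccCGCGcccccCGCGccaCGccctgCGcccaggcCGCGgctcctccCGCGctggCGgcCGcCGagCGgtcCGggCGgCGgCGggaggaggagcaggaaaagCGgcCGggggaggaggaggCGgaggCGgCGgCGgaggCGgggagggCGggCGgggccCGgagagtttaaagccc
Igf2r: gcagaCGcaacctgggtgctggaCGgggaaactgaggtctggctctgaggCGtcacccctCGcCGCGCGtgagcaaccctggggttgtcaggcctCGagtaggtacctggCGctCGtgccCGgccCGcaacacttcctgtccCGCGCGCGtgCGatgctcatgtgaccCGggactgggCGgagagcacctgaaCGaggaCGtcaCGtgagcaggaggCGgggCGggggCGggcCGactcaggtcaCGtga
Plagl1: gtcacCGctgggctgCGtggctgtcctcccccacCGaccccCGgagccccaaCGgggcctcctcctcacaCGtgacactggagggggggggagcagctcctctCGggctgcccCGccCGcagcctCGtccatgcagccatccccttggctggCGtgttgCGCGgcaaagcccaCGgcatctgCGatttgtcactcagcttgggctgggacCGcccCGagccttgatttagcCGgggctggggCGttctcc
Meg3: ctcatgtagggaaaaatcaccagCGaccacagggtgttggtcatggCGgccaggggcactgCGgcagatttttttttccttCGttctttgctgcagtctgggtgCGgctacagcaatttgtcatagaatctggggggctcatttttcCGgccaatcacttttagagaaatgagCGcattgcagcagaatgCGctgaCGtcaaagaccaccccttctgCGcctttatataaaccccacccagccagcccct
The marked starts held 24 (Ube3a), 29 (Gnas), 14 (Commd1) and 5 (Kcnq1ot1) CpG, and those without a summit 40 (Grb10), 27 (Igf2r), 19 (Plagl1) and 10 (Meg3). The CpG-richest sequence of the 39 starts, that of Grb10, was thus without a summit within 1 kb, and that of Kcnq1ot1, with 5, lay beside one in every library.

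The share of positions that recurred between lists was set beside that of each whole list. Of the ABC-labelled summits at imprinted genes, 34 of 42 had an old-labelled summit within 500 bp, or 81.0% (95% Clopper-Pearson interval 65.9 to 91.4), against 72.4% of the whole list, and 15 had a young-labelled one (35.7%, against 43.5%). Of the old-labelled ones, 35 of 97 had an ABC-labelled counterpart (36.1%, against 30.3%) and 19 a young-labelled one (19.6%, against 23.8%). Of the young-labelled ones, 14 of 25 had an ABC-labelled counterpart (56.0%, against 59.0%) and 19 an old-labelled one (76.0%, against 77.4%). A total of 13 old-labelled positions had a counterpart in both other lists. They lay at Igf2, Kcnq1 (2, 1 of them the Kcnq1ot1 start), Ascl2, Ube3a, Mest, Gnas (2), Nnat, Impact, Zrsr1 and Commd1 (2).

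Imprinted-gene windows covered 2122 kb and held 1.98, 4.57 and 1.18 summits per 100 kb in the ABC-, old- and young-labelled libraries, below the 2.61, 6.06 and 1.95 in windows of all records. The loci differed widely. The Prader-Willi and Angelman genes had 0.164 per 100 kb in each library, whereas Gnas had 8.28, 15.2 and 4.14 and the Zrsr1-Commd1 locus 8.44, 7.38 and 3.16. The summits had median places at the top 52.1%, 51.9% and 32.4% of the ABC-, old- and young-labelled lists. Summits in windows of all records had medians of 48.4%, 48.9% and 48.2%. The ABC- and old-labelled medians were thus slightly weaker than those of all records, and the young-labelled median, from 25 summits, was stronger. In the strongest 10% of their list were 5 of 42 ABC-labelled, 9 of 97 old-labelled and 3 of 25 young-labelled summits (11.9%, 9.28% and 12%, beside 11.0%, 11.3% and 11.0% in windows of all records).

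The comparison of old with young HSCs asks what age changes. Of the 31 genes, 10 were marked by an old-labelled and no young-labelled summit (20.1% of all records were): Dlk1, H19, Meg3, Mirg, Peg10, Phlda2, Plagl1, Rian, Rtl1 and Sgce. The reverse held for 0 genes (0.531% of all records). All Dlk1-Meg3 genes were in the first group. Once the lists were cut to one length, 3 genes stood on the old-labelled side, H19 (score 10.9), Plagl1 (8.42) and Sgce (8.25), and 2 on the young-labelled side, Igf2r (rank 24589) and Mest (rank 18208), where 6.39% and 4.58% of all records were. Both genes on the young-labelled side had old-labelled summits as deposited, below the 5.86 at which the old-labelled equal-length list ends. Igf2r had 8, the best at the top 36.0% of its list, where its single young-labelled summit stood at the top 74.0%. Mest had 2, the best at the top 62.4%, where its young-labelled one stood at the top 54.8%. The one-sided count as deposited thus became nearly even, and the Dlk1-Meg3 genes were no longer among those that differed. The old-labelled list is the longer one, and its length and the age label cannot be told apart here.

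Setting old HSC ABC against old HSC asks what goes with the ABC label. In all, 0 genes were marked by an ABC-labelled and no old-labelled summit (1.03% of all records were), and 8 had the reverse (15.8%): Dlk1, Meg3, Mirg, Phlda2, Plagl1, Rian, Rtl1 and Slc22a18. At equal length 2 genes stood on the ABC-labelled side, Peg10 (score 42.8) and Igf2r (3.47), and 3 on the old-labelled side, H19, Plagl1 and Slc22a18 (7.41), where 4.72% and 6.66% of all records were. Both genes on the ABC-labelled side had old-labelled summits as deposited, 1 at Peg10 (3.92) and 8 at Igf2r (highest 5.20). These scored below the 5.86 at which the old-labelled equal-length list ends. Plagl1 and Slc22a18 were on the old-labelled side in both versions. This comparison shares the old-labelled library with that by age, so genes marked there alone enter both. These were 7 genes, Dlk1, Meg3, Mirg, Phlda2, Plagl1, Rian and Rtl1, where 12.1% of all records were marked in the old-labelled library alone. None of the 31 genes was marked in the ABC-labelled or the young-labelled library alone, where 0.887% and 0.392% of all records were.

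Between old HSC ABC and young HSC, whose lists are closest in length, 3 genes were marked in the ABC-labelled library alone of the pair, H19, Peg10 and Sgce (8.89% of all records), and 1, Slc22a18, in the young-labelled library alone (4.07%). At equal length the ABC-labelled side held Peg10 and Sgce and the young-labelled side Mest and Slc22a18, where 5.86% and 5.99% of all records fell. H19 dropped out because its ABC-labelled summit (2.53) lay below the 2.84 at which the ABC-labelled equal-length list ends.

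The 5 kb limit mattered at a few genes. Just inside it lay the summit at Nnat in all lists (4039 bp), an old-labelled one at Igf2 (4127 bp, score 2.79) and an ABC-labelled one at Ascl2 (4870 bp, 3.66). Just outside lay strong summits near Impact, at 5402, 5381 and 5380 bp with scores of 32.6, 51.0 and 63.9 in the ABC-, old- and young-labelled lists. The start of Commd1 also lay just outside the window of Zrsr1. Of genes without a summit in a library, Meg3 (7386 bp, score 3.92) and Dlk1 (9730 bp, 2.12) in the ABC-labelled library had one within 10 kb.

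Other imprinted genes and their neighbours at the same loci numbered 37, of which the ABC-, old- and young-labelled libraries marked 27, 28 and 21, where 45.8%, 60.6% and 41.0% of all records and 66.8%, 77.4% and 62.5% of protein-coding ones were marked. At equal list length the counts were 22, 21 and 21, where 40.8%, 42.8% and 41.0% of all records were marked. Shares of protein-coding records at equal length were not counted. The strongest in every list was Ppp1r9a, a neuronal scaffold gene near Peg10, with ranks of 174, 144 and 177 and a start 16, 197 and 83 bp from a summit. Next came Blcap (ranks 929, 577 and 1029), whose start carried the summit counted for Nnat. Inpp5f, a phosphoinositide phosphatase gene, had rank 2204 in the ABC-labelled library, and Copg2, a coat protein gene, had ranks 938 and 2093 in the old- and young-labelled ones. Cdkn1c, the cell cycle inhibitor of the Kcnq1 locus that is known for holding HSCs in quiescence, had 1 weak ABC-labelled summit (1.88), 2 old-labelled (highest 4.47) and none in the young-labelled library. Cobl (best scores 3.06 and 6.79), Th (2.53 and 6.03), Herc3 (5.40 and 5.27) and Slc22a2 (4.49 and 4.89) were likewise marked in the ABC- and old-labelled but not the young-labelled library. Peg13, a paternally expressed non-coding RNA gene, had 3 old-labelled summits (highest score 10.4) and 1 young-labelled summit (2.54), and none in the ABC-labelled library.

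Genes that set or keep imprints all had a summit in each library as deposited, 20 of 20, where 66.8%, 77.4% and 62.5% of protein-coding records did. At equal list length 19, 19 and 20 were marked in the ABC-, old- and young-labelled libraries, where 40.8%, 42.8% and 41.0% of all records were. Tet1, a dioxygenase gene of DNA demethylation, was among the 3 strongest in every list, with scores of 17.4 (rank 1773), 40.6 (rank 2484) and 19.4 (rank 1721) in the ABC-, old- and young-labelled lists. Arid4a was so in the ABC- and young-labelled lists, with 17.4 (rank 1785), 29.2 (rank 4755) and 19.3 (rank 1752) in the same order. The maintenance methyltransferase gene Dnmt1 was the next in the ABC-labelled list (16.7, rank 1965). Arid4b led in the old-labelled list (52.9, rank 1207), where Tet2 was also high (39.2, rank 2679), and the histone methyltransferase gene Ehmt2 led in the young-labelled one (22.9, rank 1122). Of 18 such genes with a RefSeq start, 15, 18 and 17 had a summit within 1 kb of it, where 35.5%, 47.2% and 34.5% of all genes with a start did.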

How the data were processed

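Summit lists from H3K9ac CUT&Tag were analysed, 1 library in each of 3 groups. The submitters' processing notes name BWA, Picard, MACS2 and edgeR and build mm10, without roles, versions or settings. The authors deposited a score for each summit, read here as a −log10 q-value since the lowest in every list was 1.30, which is −log10 of 0.05. Depth is unknown, so scores were ranked only inside a list, apart from the score minimums among the alternatives below. Gene records (49943 on chromosomes 1 to 19, X and Y, any biotype) and start sites came from RefSeq tables of GRCm38.p6, the assembly that mm10 is based on. Counting used Python 3.11.15 with pandas 2.3.3 and scipy 1.17.1 and was tested on simulated data. Samples were grouped by title. A single library per group allowed no test. The members and lists were chosen with earlier results of these data known. All 31 members are named. Of the other lists, those marked in 1 or 2 libraries (up to 6 by score) and the 3 strongest per library are named. Peg12, Snurf and Airn were added after their values were seen, as were the counts at starts, the CpG counts and the promoters shown, the gaps and the search for summits without counterparts. Alternatives were score minimums of 5 and 10, equal-length lists, windows of 1 kb, 10 kb, inside only and ends only, merging below 500 bp, and sharing within 250 or 1000 bp. Regions of artefact signal were not filtered.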

Additional observations from a re-analysis of the deposited data

How the results depend on the processing

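No paired analysis was possible because each group had 1 library and the labels carry no replicate numbers. The number of genes marked, 17, 25 and 15 in the ABC-, old- and young-labelled libraries, stayed within 1.5 times under windows of 1 kb, 10 kb and inside only, and after merging. It was 10 in the ABC-labelled library at a score of at least 5, and 8, 10 and 4 at a score of at least 10, where fewer summits were left. Equal-length lists gave 16 in the old-labelled library, and ends only gave 11 in the ABC-labelled one. The net count of old minus young (10) stayed above 0 in each alternative, at 6 with scores of at least 10 and 1 in equal-length lists. The net count of old HSC ABC minus old HSC (-8) stayed below 0, at -2 and -1 in the same settings. The net count of old HSC ABC minus young HSC (2) did not keep its direction: it was -2 with scores of at least 5, 0 in equal-length lists, 4 with scores of at least 10 and within 10 kb, and 1 within 1 kb, inside only and at ends only; the cause was not tested. Leaving out summits nearer to another protein-coding gene, added after the data were seen, gave 15, 24 and 13 genes. Of 837 recounts of summits at single genes, 192 moved by over 1.5 times. Unknown depth limits each count, including those at score minimums, which cut all lists at the same score.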

Other observations

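Records of 8 imprinted genes hold microRNA hairpins in RefSeq, led by Rtl1 with 15, Mirg with 10 and Rian with 3, and Meg3, H19, Igf2, Mest and Usp29 have 1 each. None of these hairpins lay within 1 kb of a summit in any of the 3 libraries. The share over all hairpins was not counted, so this is no result about hairpins. Rtl1, Mirg, Rian and Meg3 share the Dlk1-Meg3 locus, whose windows held 0, 6 and 0 summits in the ABC-, old- and young-labelled libraries. At Rtl1 the hairpins include those of Mir127 and Mir136, and at Mirg those of Mir410 and Mir541.

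The motif TGCCGC, whose methylated form is bound by the imprint-keeping factor ZFP57, was searched on both strands in the 250 bases before each start. It was present before 5 of 39 member starts (12.8%), at Mest (2 overlapping starts), Meg3, Plagl1 and Zim1, against 8.68% of all 32851 starts. None of these 5 had a summit within 1 kb in any library, but 27 of the 39 member starts, with or without the motif, had none either. Over all starts 2054 of the 2850 with the motif had one. Any tie between the motif and the mark was not tested. The motif was before 13.1% of all starts with a summit and 4.65% of those without.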
